A study of Mus musculus with 15 samples.

Results

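The SLC25 family holds the carriers that move metabolites across the inner mitochondrial membrane. Its members were taken here as every gene whose name is Slc25a or Ucp followed by a number, which gave 45 of 16572 gene names in the RNA-Seq values of NMuMG-derived cell lines. The knockout dataset (dataset 1) held 42 of them and the knockdown dataset (dataset 2) all 45. The family entered because it holds Slc25a48, which was lost in the FAM3C KO and LIFR KO clones and which the study itself had picked for its change in those comparisons and in dataset 2. Slc25a48 was thus chosen by its CPM, and its values are given as a description, with no test, in every comparison. The other members were taken by name alone.

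NMuMG is a mouse mammary epithelial cell line. In dataset 1 every line carried shRNA against PCBP1, an RNA-binding protein: the unaltered shPCBP1 line, 3 CT clones that received Cas9 without gene-specific guides, 3 clones with FAM3C knocked out (FAM3C KO), 3 with LIFR knocked out (LIFR KO) and 1 double knockout (DKO) line, each measured in 1 RNA sample. The unaltered line and the CT clones form the shPCBP1 group (n = 4). FAM3C is a secreted cytokine-like protein and LIFR is the receptor for leukemia inhibitory factor. Dataset 2 compared 2 control NMuMG samples, untreated by their labels and shSCR in the methods, with 2 shPCBP1 samples. Nothing in the labels says that these came from separate cultures, so p-values of dataset 2 measure only the spread between these samples, which may be technical. The authors deposited normalized CPM, which are read counts scaled to library size. The 2 tables were normalized separately and are compared only within themselves.

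Most SLC25 proteins are built from repeats of the same membrane-spanning module and swap a substrate on each side of the membrane: ADP against ATP, phosphate with protons, di- and tricarboxylates, amino acids, nucleotides, cofactors and metals. The uncoupling proteins are relatives that let protons or anions pass. A few relatives sit elsewhere, such as Slc25a17 in peroxisomes and Slc25a46 in the outer membrane. Slc25a48 brings choline into the matrix, where it is oxidised to betaine.

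Implied depth ranged from 16031859 to 46901675 reads per library in dataset 1 and from 53032111 to 56496537 in dataset 2. The transcript targeted by the shRNA, Pcbp1, fell from 287 to 312 CPM in control NMuMG to 14.1 to 14.2 CPM in shPCBP1 of dataset 2. Fam3c stood at 47.0 to 59.4 CPM in shPCBP1 lines and 26.4 to 42.9 CPM in FAM3C KO clones, which did not overlap. Lifr stood at 25.8 to 40.2 CPM in shPCBP1 lines and 14.6 to 34.9 CPM in LIFR KO clones, so the transcript level alone did not separate those labels. Of 6 epithelial markers, 4 were among the genes analysed. Their summed level was 2470 to 3170 CPM in shPCBP1, 2000 to 3020 in FAM3C KO and 1210 to 2090 in LIFR KO, and 2920 to 2970 in control NMuMG against 2770 to 2820 in shPCBP1 of dataset 2. The 6 mesenchymal markers summed to 1730 to 1970 CPM in shPCBP1, 2000 to 2150 in FAM3C KO and 1210 to 1870 in LIFR KO, and rose from 530 to 551 in control NMuMG to 1300 to 1330 in shPCBP1 of dataset 2. Among immune, endothelial and adipocyte markers, Cd68 was highest at up to 10.8 CPM, and Ptprc and Adipoq were at 0.0355 CPM or less in dataset 2. The part of these markers in the carrier results was not tested. In bulk samples, fewer cells of a type and less RNA per cell cannot be told apart.

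Promoters of Slc25a48 and Slc25a13 are shown because their changes, described further on, were the largest of the family. They run 5′ to 3′ on the gene's strand, from 250 bases before to 50 bases after the RefSeq start (GRCm38.p6). No letters are in capitals, because no motif searched was found in them. Slc25a48 lies at chr13:56438105-56438404 on the plus strand and Slc25a13 at chr6:6217124-6217423 on the minus strand.
Slc25a48 promoter: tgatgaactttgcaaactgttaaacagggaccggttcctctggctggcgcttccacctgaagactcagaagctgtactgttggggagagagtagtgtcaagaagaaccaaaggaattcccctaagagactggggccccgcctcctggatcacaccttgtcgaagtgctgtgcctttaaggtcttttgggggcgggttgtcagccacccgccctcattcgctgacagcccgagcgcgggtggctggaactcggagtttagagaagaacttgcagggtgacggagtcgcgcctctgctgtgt
Slc25a13 promoter: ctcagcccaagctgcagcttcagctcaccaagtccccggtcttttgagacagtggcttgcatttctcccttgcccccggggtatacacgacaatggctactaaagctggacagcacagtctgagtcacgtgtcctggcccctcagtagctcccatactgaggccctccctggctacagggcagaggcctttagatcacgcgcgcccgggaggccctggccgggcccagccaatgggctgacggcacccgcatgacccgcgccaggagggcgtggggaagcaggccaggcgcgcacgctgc
The STAT-type motif TTCNNNGAA and its special case TTCCNGGAA were searched on both strands. Among 32851 mouse promoters of this length, 8.3% and 1.15% held them. The 49 promoters listed for 39 genes named Slc25a or Ucp held them in 3 and 0 cases. The 3 with TTCNNNGAA were those of Slc25a36, Slc25a54 and Ucp3. Among the 39 were Slc25a21, Slc25a31, Slc25a43 and Ucp1, which are not among the 45 members analysed. A CG dinucleotide occurred 14 times in the Slc25a48 promoter and 17 times in that of Slc25a13. Its median was 15 over the 49 promoters and 7 over all, so the 49 were in general richer in CG than most.

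In the shPCBP1 lines of dataset 1, the ADP/ATP carriers were the most abundant members per kilobase of transcript. Slc25a5 stood at 300 CPM per kb (281 to 336 over the 4 lines) and Slc25a4 at 199 (179 to 215). Next came the phosphate carrier Slc25a3 at 153 CPM per kb (140 to 172), which overlapped with the glutathione carrier Slc25a39 at 125 (119 to 140). The oxoglutarate carrier Slc25a11 at 58.4 and the dicarboxylate carrier Slc25a10 at 57.8 CPM per kb overlapped with each other, and Ucp2 was eighth in that order at 35.0 (33.9 to 36.5). Near-identical copies exist for the ADP/ATP carriers, so their levels are uncertain. At the other end stood Slc25a48, number 40 of 42, at 0.781 CPM per kb (0.563 to 1.03).

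Slc25a48 (ENSMUSG00000021509, chr13:56438355-56474239, plus strand) was present in every shPCBP1 line and at or close to the lowest value of the library in most knockouts. It was measured at 2.31 CPM in unaltered shPCBP1 cells, and CT clones 1 to 3 had 3.48, 1.90 and 2.85 CPM. The FAM3C KO clones stood at 0.0443, 0.480 and 0.0384 CPM, of which the first and the third are the lowest value in those libraries. The LIFR KO clones stood at 0.107, 0.125 and 0.0858 CPM, and the DKO line at 0.141 CPM. No knockout reached the lowest shPCBP1 line, and FAM3C KO clone 2 was the knockout with the most left. As multiples of the library's lowest value, the FAM3C KO clones stood at 1, 12 and 1 and the LIFR KO clones at 2, 3 and 2, against 37 to 163 in the shPCBP1 lines. At such low values no exact fold can be given. The log2 fold changes of CPM + 0.1 were −3.56 (SE 0.494) in FAM3C KO, or −4.24 without FAM3C KO clone 2, and −3.70 (SE 0.494) in LIFR KO. They depend on the constant added and understate the change of low genes. The 2 comparisons share the shPCBP1 lines.

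**Figure D1:**
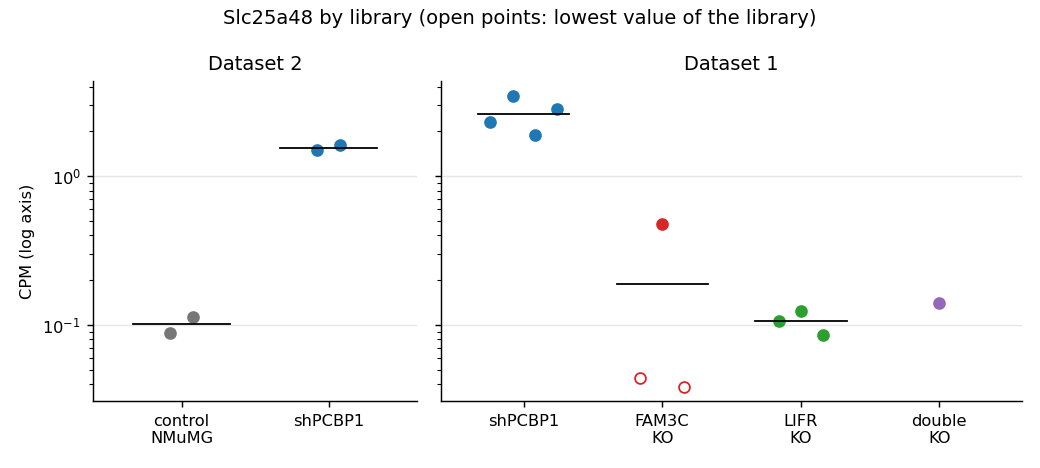
Slc25a48 in CPM on a log axis, 1 point per library, for dataset 2 (left) and dataset 1 (right); black lines are group means and open points mark the lowest value of a library. The 2 shPCBP1 samples of dataset 2 stand at 1.49 and 1.61 CPM against 0.0886 and 0.113 in control NMuMG, and every knockout lies under the shPCBP1 lines.

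Genes around it did not fall as far. Within 5 Mb of its start, 61 other genes were tested in dataset 1, with a median log2 fold change of 0.0198 in FAM3C KO and −0.189 in LIFR KO. In neither comparison did any of the 61 fall as far as Slc25a48. Since Slc25a48 was chosen for its fall here, its place beyond its neighbours is not independent evidence.

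In dataset 2 Slc25a48 stood higher in shPCBP1 than in control NMuMG. Control NMuMG stood at 0.0886 and 0.113 CPM and shPCBP1 at 1.49 and 1.61 CPM, without overlap. These values correspond to 5 to 6 reads per control sample and 83 to 87 reads per shPCBP1 sample. The log2 fold change was 3.04 (SE 0.178), a 15.3-fold higher mean. Its mean reached the minimum of 0.5 CPM, here and in dataset 1, only through the shPCBP1 samples. Its 56 tested neighbours had a median of 0.22, and none rose as far. Since the gene was picked for its change here too, neither its direction nor its place beyond its neighbours is independent evidence.

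PCBP1 knockdown changed most of the family in dataset 2, mildly. Of 45 members, 40 passed the filter of a mean of 0.5 CPM. Of the 39 besides Slc25a48, 33 (84.6%) passed an adjusted p of 0.07 in limma, against 80.1% of all genes tested. The share of members was thus near the background. More members were higher, 20 (background 42.1%), than lower, 13 (background 38.0%), and the median log2 fold change was 0.154 against 0.0247 over all genes. The groups did not overlap for 36 of the 39, or 92.3%, against 89.0% of all genes. Of the 33, 32 had a value under each of 4 other scalings, where all 32 kept their sign and 26 passed the test every time. The remaining one, Slc25a32, had no GC content in dataset 2 and passed under the 2 scalings that do not use it. Besides Slc25a48, 4 members both passed and changed by a log2 of 1 or more, a rule that 14.6% of all genes met: Slc25a13, Slc25a36 and Slc25a23 were lower and Slc25a45 was higher. Slc25a13 passed the filter only through the control samples, and without it the counts were 32 of 38 and 3.

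**Figure D2:**
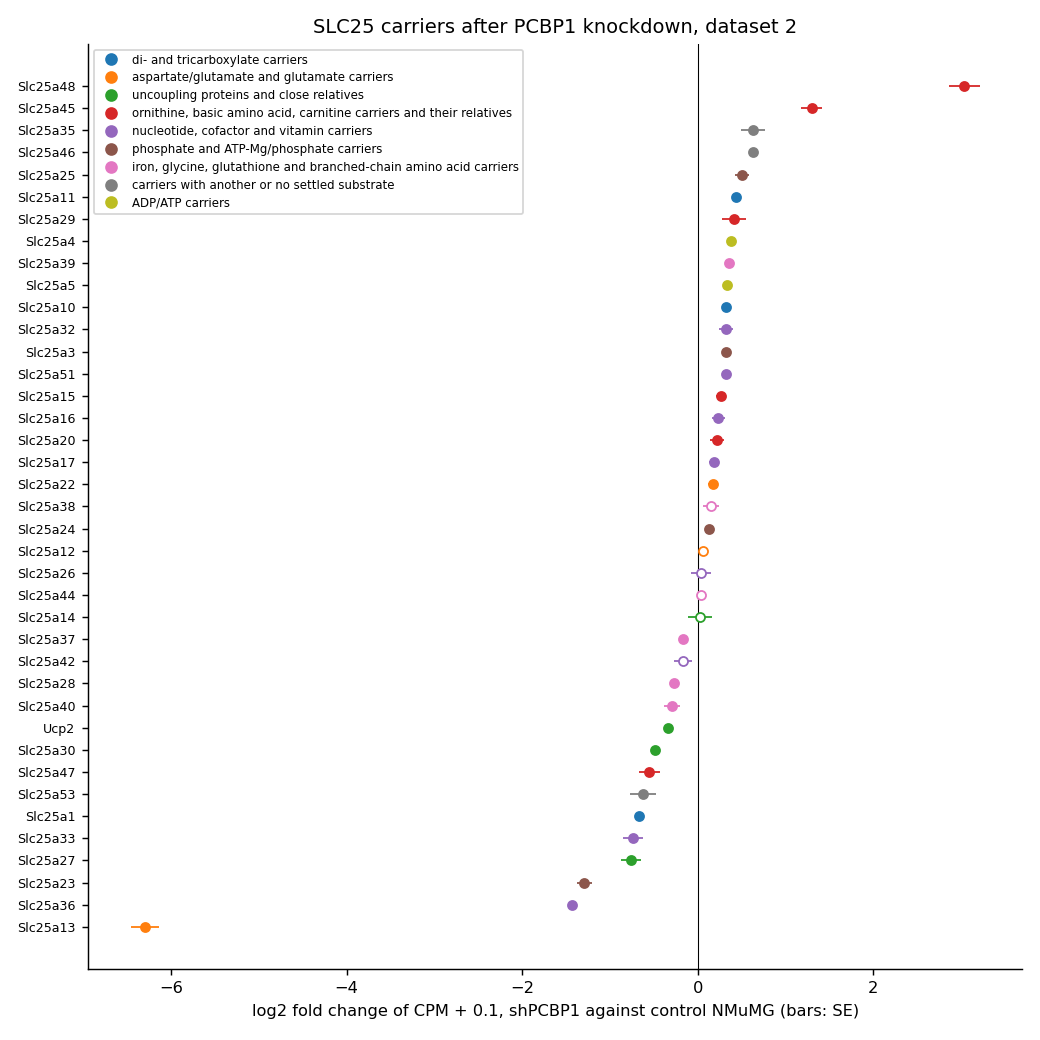
Log2 fold change of CPM + 0.1 in shPCBP1 against control NMuMG for 39 of the 40 members tested in dataset 2, with standard errors as bars; colours mark the role and open points did not pass an adjusted p of 0.07. Slc25a48 is highest at 3.04, Slc25a13 lowest, and all but Slc25a45, Slc25a36 and Slc25a23 of the others lie between −0.76 and 0.63. The fill of Slc25a48 and Slc25a13 is not to be read as a test result. Slc25a48 was picked for its change, and each of them passed the filter through 1 group only.

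Among amino acid carriers, Slc25a13 (chr6:6041218-6217173, minus strand) was lost. It encodes citrin, a calcium-regulated aspartate/glutamate carrier of the malate-aspartate shuttle. Control NMuMG held 7.26 and 8.35 CPM, and both shPCBP1 samples were at the value that stands for no reads. Against a floor of 3 reads per library, it was at least 141-fold lower. No p is given for it, because only the control samples carried it past the filter. Its paralog Slc25a12 had a log2 fold change of 0.07 (SE 0.0542, limma adjusted p = 0.281) and did not pass. The glutamate carrier Slc25a22 rose by 0.17 (SE 0.0514, adjusted p = 0.00926). Slc25a13 was not analysed in dataset 1.

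Genes near Slc25a13 were mixed. The 16 tested neighbours within 5 Mb had a median log2 fold change of −0.183, and none fell as far. The nearest, Sem1, at a distance of 0.516 Mb, stood at 15.3 and 14.7 CPM in control NMuMG and 13.5 and 14.2 in shPCBP1. Farther off on the other side, Ppp1r9a stood at 6.16 and 6.34 CPM against 0.179 and 0.0925, and Pon3 at 7.86 and 8.84 against 1.95 and 2.16, while Pon2, which lies close to Pon3, stood at 20.2 and 20.5 against 15 and 15.2. On the side of Sem1, Ica1 at a distance of 2.59 Mb had a log2 fold change of −4.29. Samd9l, at −2.67 Mb on the other side, had −2.12, and the highest of the 16 was 0.17. Losses were thus spread unevenly over these genes.

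**Figure D3:**
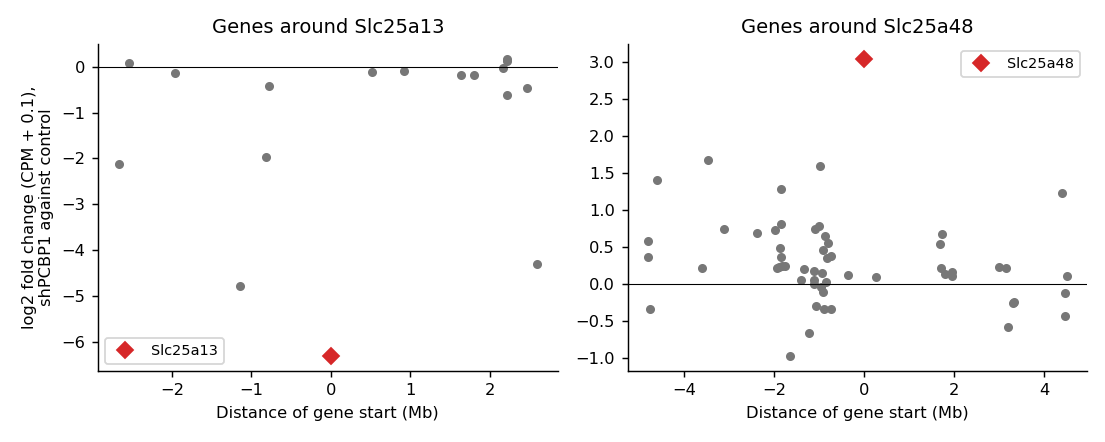
Log2 fold change of CPM + 0.1 in shPCBP1 against control NMuMG (dataset 2) of genes within 5 Mb of Slc25a13 (left, 16 genes) and Slc25a48 (right, 56 genes), by distance of the gene start in Mb; red diamonds are the carriers. The carriers lie beyond all neighbours shown, and 1 neighbour of Slc25a13 reaches −4.77. Slc25a48 was picked for its change, so its place is not independent evidence.

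The ADP/ATP carriers and the phosphate carrier rose slightly, where 42.1% of all genes tested rose. With 3 genes, nothing particular to them is read from this. Slc25a4 stood at 198 and 192 CPM in control NMuMG and at 256 and 254 in shPCBP1 (log2 fold change 0.39, SE 0.0223, limma adjusted p = 3.52e-08). Slc25a5 stood at 312 and 302 CPM against 391 and 383 (0.34, SE 0.0232, adjusted p = 1.54e-07). The phosphate carrier Slc25a3 stood at 162 and 169 CPM against 208 and 204 (0.32, SE 0.0251, adjusted p = 4.71e-07). All 3 passed under every other scaling tried. Of the ATP-Mg/phosphate carriers, which adjust the adenine nucleotide pool of the matrix, Slc25a24 and Slc25a25 rose by 0.13 and 0.51. Slc25a23 (chr17:57043711-57059863) instead fell from 17.2 and 15 CPM to 6.11 and 6.93 CPM, a log2 fold change of −1.29 (SE 0.0849, adjusted p = 1.02e-07).

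Of 4 uncoupling proteins and close relatives tested, 3 fell and none rose, where 38.0% of all genes tested fell and 80.1% passed in either direction. With 4 genes, nothing particular to the group is read from this. Ucp2 stood at 93.0 and 94.7 CPM in control NMuMG and 74.2 and 74.6 in shPCBP1, a log2 fold change of −0.33 (limma adjusted p = 3.52e-07). Slc25a27 (UCP4) stood at 3.89 and 3.53 CPM against 2.11 and 2.18 (−0.76, adjusted p = 8.51e-05). Slc25a30 fell by 0.48, and Slc25a14 had 0.03 and did not pass. Ucp3, at 0.245 CPM or less in every sample, was under the filter.

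The di- and tricarboxylate carriers split. Citrate leaves the matrix through Slc25a1, which fell from 34.1 and 34.9 CPM to 21.7 and 21.6 (log2 fold change −0.67, SE 0.0381, limma adjusted p = 3e-08). Slc25a10 rose from 67.0 and 69.3 CPM to 86.2 and 84.7, and Slc25a11 from 48.1 and 48.9 to 65.2 and 66.5. Their log2 fold changes were 0.33 and 0.44.

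Pyrimidine nucleotide carriers fell. Slc25a36 (chr9:97074961-97111157) stood at 54.6 CPM in both control samples and 19.1 and 21.3 CPM in shPCBP1, a log2 fold change of −1.43 (SE 0.0478, limma adjusted p = 4.04e-10). Its relative Slc25a33 fell from 5.79 and 4.83 CPM to 2.98 and 3.32 (−0.73, SE 0.114, adjusted p = 0.000132). Of 9 nucleotide, cofactor and vitamin carriers tested, these 2 fell (38.0% of all genes) and 5 rose (42.1%). Among the risers were Slc25a16, the peroxisomal Slc25a17, the folate and FAD carrier Slc25a32 and the NAD carrier Slc25a51. The risers named changed by 0.18 to 0.33.

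Slc25a45, a close relative of Slc25a48 (chr19:5877808-5885878), rose from 1.63 and 1.47 CPM to 4.12 and 3.79 CPM, a log2 fold change of 1.30 (SE 0.119, limma adjusted p = 1.7e-06). Its 163 neighbours had a median of −0.352. In their group of ornithine, basic amino acid and carnitine carriers, 4 of the 5 tested besides Slc25a48 rose. Over all genes, 42.1% rose, 38.0% fell and 80.1% passed in either direction. Among the 4 were the ornithine carrier Slc25a15, the carnitine/acylcarnitine carrier Slc25a20 and the basic amino acid carrier Slc25a29. With 5 genes, nothing particular to the group is read from this. Slc25a47 fell by 0.55. Of 6 carriers for iron, glycine, glutathione and branched-chain amino acids, Slc25a39 rose by 0.36 and the mitoferrins Slc25a37 and Slc25a28 and the glutathione carrier relative Slc25a40 fell by 0.16 to 0.29. Slc25a46, a protein of mitochondrial shape and outer membrane contacts, rose from 24.8 and 24.5 CPM to 37.9 and 38.5 (0.63).

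FAM3C KO moved few members besides Slc25a48 far. In FAM3C KO, 0 of the 40 members tested besides Slc25a48 passed an adjusted p of 0.07 in limma, where 0.309% of all genes did. An unadjusted p under 0.05 was found for 2 of the 40 and for 10.2% of all genes. Leaving any 1 LIFR KO clone out of the shared fit gave 1, Slc25a33, and 0.759 to 2.84% of all genes. With FAM3C KO and shPCBP1 fitted alone, 2 members, Slc25a33 and Slc25a32, and 8.29% of all genes passed. The members' median log2 fold change was −0.0235 against −0.0137 over all genes, and 37 of 40 changed by less than 0.5. The groups did not overlap for 3 members above (10.1% of all genes) and 3 below (12.5%), together 15% of members against 22.7% of all genes.

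Slc25a33 (chr4:149744036-149774277), a pyrimidine nucleotide carrier, came closest to the threshold in FAM3C KO and is described there after its values were seen. Unaltered shPCBP1 cells held 7.65 CPM and CT clones 1 to 3 held 5.20, 7.78 and 6.76, against 15.1, 16.9 and 14.9 in FAM3C KO clones 1 to 3. All FAM3C KO clones lay above all shPCBP1 lines. The log2 fold change was 1.20 (SE 0.223, limma adjusted p = 0.0765). In 10 of 21 other settings it passed, among them the fit without the LIFR KO clones (adjusted p = 0.00506). The 83 genes within 5 Mb of it had medians of 0.539, 0.11 and 0.325 in FAM3C KO clones 1 to 3, where Slc25a33 itself stood 1.15, 1.31 and 1.13 over the shPCBP1 mean.

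In LIFR KO, 1 of 40 members, or 2.5%, passed, against 6.47% of all genes. An unadjusted p under 0.05 was found for 15 of the 40 and for 35.7% of all genes. Without LIFR KO clone 1, 22 members and 57.4% of all genes passed. Without clone 2 it was 0 members and 0.356%, and without clone 3, 2 members and 5.72%. The 40 had a median log2 fold change of −0.116 where all genes had −0.164. The groups did not overlap for 2 members above (3.95% of all genes) and 5 below (13.2%), together 17.5% of members against 17.2% of all genes. The member that passed, downwards as 5.55% of all genes did, was Ucp2 (chr7:100493337-100502020), the broadly expressed uncoupling protein. It stood at 140 CPM in unaltered shPCBP1 cells, with 138, 135 and 145 in CT clones 1 to 3. LIFR KO clones 1 to 3 held 109, 70.7 and 72.9 CPM and the DKO line 80.2, all below the shPCBP1 lines. The FAM3C KO clones, at 121, 104 and 126 CPM, were all below them too, with a log2 fold change of −0.261 for Ucp2 that did not pass. Its log2 fold change in LIFR KO was −0.76 (SE 0.146, limma adjusted p = 0.038), or −0.60 relative to the median of all genes. The call was lost with a GC correction (−0.31, adjusted p = 0.0821), without LIFR KO clone 2 (adjusted p = 0.129), and without any 1 of the 4 shPCBP1 lines (adjusted p from 0.0758 to 0.12).

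**Figure D4:**
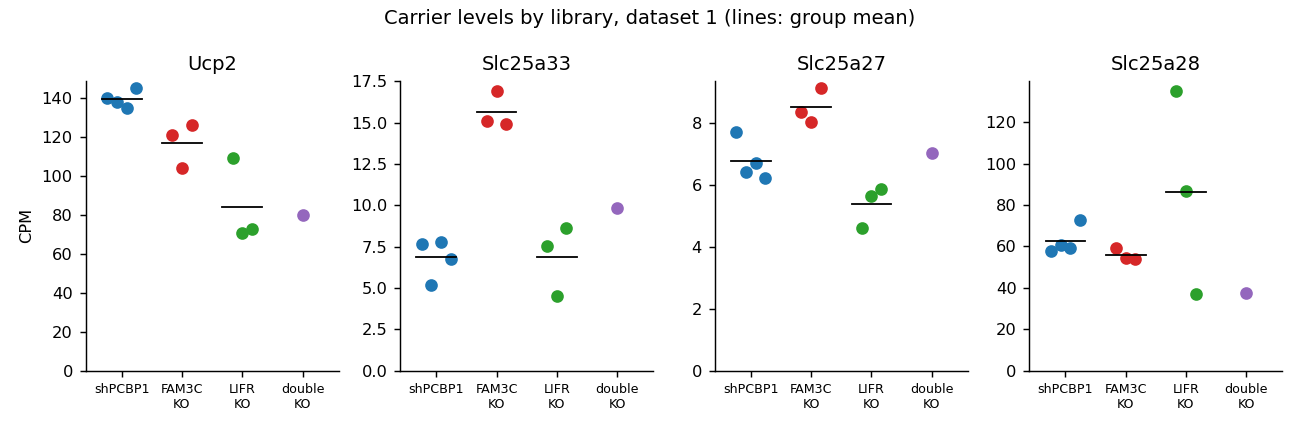
CPM of 4 carriers in dataset 1, 1 point per library, with lines at group means and every axis from 0. Slc25a33 lies at 14.9 to 16.9 in FAM3C KO, above all other libraries. Ucp2 is below the shPCBP1 lines in FAM3C KO, LIFR KO and the DKO line, and Slc25a28 spreads from 37.1 to 135 among LIFR KO clones.

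The LIFR KO clones were not alike. In clones 2 and 3 and in the DKO line, members with a GC-rich transcript stood low and those with an AT-rich transcript high. Across the 40 members, which share a library's depth and composition, the Spearman correlation between GC content and a member's log2 difference from the mean of shPCBP1 was −0.83, −0.895 and −0.877 in these libraries, 0.247 in LIFR KO clone 1 and between −0.527 and 0.416 in the other 7. Over 12603 genes it was −0.757, −0.744 and −0.702. The 20 members with the higher GC content had a median difference of −0.575 in clone 2 and −0.665 in clone 3, and the other 20 had 0.0852 and 0.361. Ucp2, with 55% GC, belongs to the former. Clone 1, without this pattern, held 109 CPM of Ucp2.

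**Figure D5:**
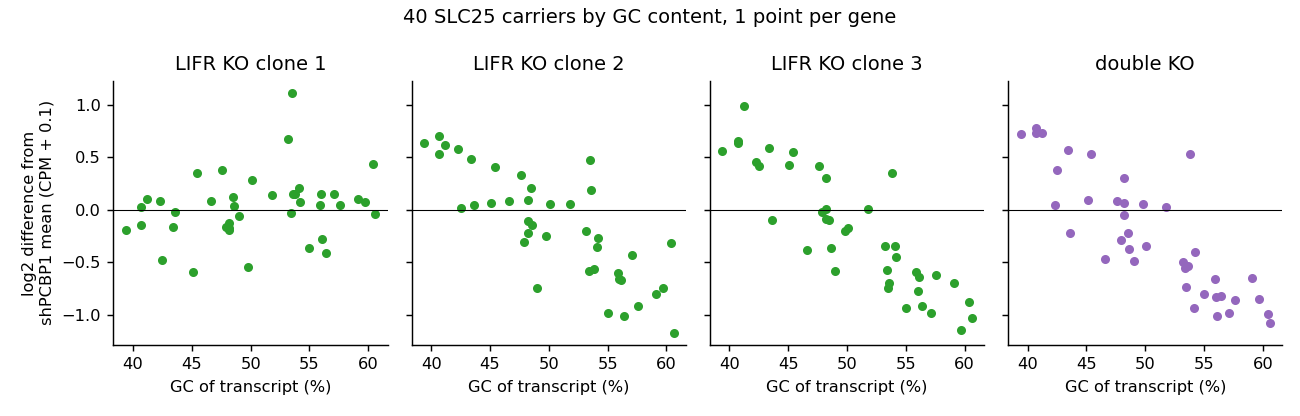
Log2 difference of CPM + 0.1 from the shPCBP1 mean against transcript GC content in percent, 1 point for each of 40 members, in LIFR KO clones 1 to 3 and the DKO line. The points fall with GC content in clones 2 and 3 and DKO (Spearman −0.83, −0.895 and −0.877) but not in clone 1 (0.247).

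Slc25a28 (mitoferrin 2, an iron importer; chr19:43663801-43674881) differed most visibly between LIFR KO clones and was chosen after its values were seen. It stood at 57.8 to 72.6 CPM in shPCBP1 lines, and at 135, 86.6 and 37.1 in LIFR KO clones 1 to 3 and 37.4 in the DKO line. The LIFR KO clones thus fell on both sides of the shPCBP1 lines (log2 fold change 0.28, SE 0.331, limma adjusted p = 0.547), and without clone 1 the fold change was −0.14. The neighbours' medians had the same sign as Slc25a28 in each of these libraries: 104 genes within 5 Mb had medians of 0.422, 0.0684 and −0.445 in the 3 clones and −0.559 in the DKO line, against 1.11, 0.473, −0.745 and −0.736 for Slc25a28.

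Set against each other, FAM3C KO and LIFR KO clones differed in 2 of the 40 members besides Slc25a48, or 5.0%, against 8.28% of all genes, both higher in FAM3C KO (6.83% of all genes). Without LIFR KO clone 1 the count was 18, where 52.9% of all genes passed. It was 0 without LIFR KO clone 2 (0.799% of all genes) and without any 1 FAM3C KO clone (0.00793 to 0.515%). For 3 members (7.5%, against 22.8% of all genes) the groups did not overlap, and all 3 were higher in FAM3C KO (16.1% of all genes). Slc25a33 was 1.22 higher on the log2 scale in FAM3C KO (SE 0.238, limma adjusted p = 0.0366), with LIFR KO clones at 7.52, 4.54 and 8.63 CPM. Its 83 neighbours had a median of 0.62 in this comparison, and 10 of them were at least as far up. Slc25a27 (chr17:43641891-43667214), the relative of the uncoupling proteins named UCP4, held 8.37, 8.04 and 9.14 CPM in FAM3C KO, 4.61, 5.66 and 5.87 in LIFR KO, and 7.73, 6.44, 6.71 and 6.22 in the unaltered line and CT clones 1 to 3. Its difference was 0.66 (SE 0.153, adjusted p = 0.0436), with the shPCBP1 lines in between. Its 73 neighbours within 5 Mb had a median of 0.313, and 14 of them were at least as far up. Both calls were lost under the GC correction, at 0.87 (adjusted p = 0.0984) and 0.50 (adjusted p = 0.133).

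Lists of related genes gave the surroundings of the family. Of 10 genes for import of carrier proteins into mitochondria, 0 passed in either knockout in limma. Over all genes, 0.309% passed in FAM3C KO and 6.47% in LIFR KO. In dataset 2, 6 of the 10 rose (42.1% of all genes) and 1 fell (38.0%). Timm22, the core of the carrier translocase, was up by 0.59 and Tomm22 by 0.51. Among 21 listed mitochondrial membrane proteins named neither Slc25a nor Ucp, 20 were tested in dataset 1. FAM3C KO had 0 calls (0.309% of all genes). LIFR KO had 4 lower (5.55% of all genes), among them Mtch1, Sfxn3 and Smdt1, by 0.50 to 0.93. These 3 stayed lower under 4 other scalings, but Sfxn3 passed in 0 of them and the other two in 3. In dataset 2, 7 rose (42.1% of all genes) and 12 fell (38.0%), where 80.1% of all genes passed in either direction. The outer membrane channel Vdac2 rose most (41.0 and 42.1 against 89.6 and 89.8 CPM). Micu2, a regulator of the calcium uniporter, went from 6.07 and 6.20 CPM to the value that stands for no reads in both shPCBP1 samples, as Slc25a13 did. It is counted among the 12, but only the control samples carried it past the filter.

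Of 12 genes for choline uptake and use, 9 were tested. In FAM3C KO 0 passed in limma (0.309% of all genes). In LIFR KO 2 were lower, as 5.55% of all genes were. These were the choline kinase Chkb, by 0.67, and Sardh, the matrix sarcosine dehydrogenase further down choline oxidation. Each passed in 2 of 4 other scalings. Sardh stood at 15.4 to 20.7 CPM in shPCBP1 lines, 21.2 to 23.0 in FAM3C KO, 4.76, 4.19 and 11.4 in LIFR KO clones and 15.4 in the DKO line. In dataset 2, 7 rose (42.1% of all genes) and 2 fell (38.0%), where 80.1% of all genes passed in either direction. Among the risers, Pcyt1b and Pemt passed narrowly (limma adjusted p = 0.0637 and 0.0552). The choline transporter Slc44a1, which serves the cell surface and mitochondria, rose by 0.43, and the choline kinase Chka fell from 442 and 447 CPM to 174 in both shPCBP1 samples (log2 fold change −1.35, SE 0.0203, limma adjusted p = 1.62e-12).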

How the data were processed

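RNA-Seq was run by the authors on NMuMG-derived lines after rRNA depletion with a directional kit. Reads were aligned to GRCm38 with Bowtie2 and quantified in Partek Flow, with DESeq2 named for the comparisons, and the authors deposited CPM per sample. In dataset 2 0.0001 stands for 0. Dataset 1 holds no 0, the lowest value of a library equals 1 step of its scale, taken here as 1 read, and whether it stands for no reads was not settled. The 3 columns with the authors' group means and fold change of dataset 2 were not used. Values were whole multiples of 1 read (within 0.02 reads, under 200 reads) for 81.5 to 82.7% and 87.5 to 88.5% of values, too few for a count test. 

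Here, genes whose mean reached 0.5 CPM (12621 and 11384) were transformed to log2(CPM + 0.1) and compared in limma 3.58.1 under R 4.3.3, using its trend option, with Benjamini-Hochberg adjustment and a threshold of 0.07. The 3 groups of dataset 1 shared 1 fit, and the DKO line, a single sample, was left out. Slc25a48 was part of the fits, but no test of it is reported. Named members were those that passed, in dataset 2 also with a log2 change of at least 1, and Slc25a48; the others were chosen with their values known. Members and lists were chosen with earlier results of these data known. Of 51 genes listed by role, 6 were not analysed here. Slc25a34 did not pass the filter in dataset 1, nor Slc25a2, Slc25a18, Slc25a34, Slc25a54 and Ucp3 in dataset 2. Coordinates and GC content are from GENCODE M21 (GRCm38), promoters from RefSeq. Code was tested on simulated data. Values of some genes are not reported here.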

Additional observations from a re-analysis of the deposited data

Results flagged for a closer look

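Of 42 members examined in the 4 shPCBP1 lines of dataset 1, 3 had a line far from the others. About 1 in 20 such groups would be expected to by chance. The gap to the nearest line, as a share of the range, was 0.885 for Slc25a10, where CT clone 1 held 99.3 CPM and the others 121 to 124. It was 0.896 for Slc25a39, where CT clone 2 held 237 CPM and the others 201 to 205, and 0.952 for Slc25a46, where CT clone 1 held 55.1 CPM and the others 48.1 to 48.4.

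FAM3C KO and LIFR KO clones differed in Slc25a33 by 1.22 and in Slc25a27 by 0.658 on the log2 scale, both higher in FAM3C KO by a test of the difference itself.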

How the results depend on the processing

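The values of Slc25a48 kept their sign in every setting run, between −4.24 and −1.61 in FAM3C KO, between −3.84 and −1.70 in LIFR KO, and between 1.21 and 3.13 in dataset 2, with the values nearest to 0 at a pseudocount of 1 CPM. In dataset 2, Slc25a23, Slc25a36 and Slc25a45 passed under each of 4 other scalings. Over 13 settings their log2 fold changes were −1.43 to −1.18, −1.51 to −1.31 and 0.958 to 1.37. As fitted, 33 of the 39 members besides Slc25a48 passed, or 32 of 38 without Slc25a13, against 80.1% of all genes. With both genes counted, the highest count was 36, and a fold change of at least 1.5 left 11. In settings with every sample, 67.7 to 81.4% of all genes passed an adjusted p of 0.07. No share of all genes is given for the 11. Slc25a48 was picked for its change, so these counts are no test of it.

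In FAM3C KO against shPCBP1 the count of 0, where 0.309% of all genes passed, became 1 (Slc25a33) in some settings. These included a pseudocount of 1 CPM, quantile normalization, median-ratio rescaling and the GC correction, where 0.254 to 1.88% of all genes passed. It became 2 (with Slc25a32) with the 2 groups fitted alone, where 8.29% of all genes passed. Leaving out 1 line gave 0 to 1, and 0.0238 to 2.84% of all genes. In LIFR KO against shPCBP1 the count was 1, where 6.47% of all genes passed. It became 2 (Slc25a30 and Ucp2) with median-ratio rescaling (3.81% of all genes) and quantile normalization (4.87%). With the replicate block, the GC correction, both together, and the 2 groups fitted alone it was 0, and 0.0238 to 0.349% of all genes passed. Leaving out 1 line gave 0 to 22, and 0.0397 to 57.4% of all genes. The 22 came without LIFR KO clone 1 (57.4%), and without clone 3 it was 2 (5.72%). Slc25a28 turned from 0.28 to −0.136 without LIFR KO clone 1, the lowest of the values that leave out 1 line, and was 0.791, the highest, without clone 3. In FAM3C KO against LIFR KO the count of 2 (8.28% of all genes) became 1 with median-ratio rescaling (6.53%) and quantile normalization (6.6%). With the replicate block, the GC correction, both together, and the 2 groups fitted alone it was 0, and at most 0.587% of all genes passed. Leaving out 1 line gave 0 to 18, and 0.00793 to 52.9% of all genes, with 18 without LIFR KO clone 1 (52.9%). The causes were not tested.

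The GC correction (loess, span 0.3) cut calls over all genes from 816 to 44 in LIFR KO (23 higher, 21 lower) and moved their median from −0.164 to 0.0361. This form was settled after the counts from a first form, which kept each library's median, had been seen. That one left 401 calls in LIFR KO (3.18% of all genes), with 1 carrier, Ucp2, among them. It called 1 carrier in FAM3C KO (0.968% of all genes) and 4 in the direct comparison (5.78%). An alternative without LIFR KO clones 2 and 3 was chosen after seeing the data, as the first form of the GC correction is listed too. It left LIFR KO as a lone clone assumed to vary like the other groups, so its counts are not given.

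Same-numbered clones did not deviate together (9 correlations from −0.18 to 0.15 in dataset 1, 0.051 in dataset 2), so the numbers were not read as pairs. The block gave 0 carriers called in each comparison of dataset 1, and at most 0.119% of all genes. In dataset 2, 81.1% of all genes passed with the block and 80.1% as fitted. Dataset 2 had 2 samples a group, and with 1 RNA sample per clone in dataset 1 the spread between clones includes that between samples of a clone.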
